A study of Mus musculus with 8 samples.

Results

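The miR-34 and miR-449 family was followed among the RISC-bound small RNAs (R-sRNAs) of mouse brain. Its 6 members were set by name, with earlier results of these data known, as the rows that the deposited table assigned to mmu-miR-34a-5p, mmu-miR-34b-5p, mmu-miR-34b-3p, mmu-miR-34c-5p, mmu-miR-34c-3p and mmu-miR-449a-5p. These 6 names of 895 held 181 of the 47204 read sequences in the table. The brains came from female mice, 6 or 8 months old per the study's methods and 6 months old per its account of this comparison, on a mixed C57BL/6J and SJL background. All mice carried the 5XFAD transgene, which gives amyloid plaques, and differed in Rubicon, a gene that constrains autophagy. There were 4 libraries of 5XFADtg Rubicon+/- mice (het) and 4 of 5XFADtg Rubicon-/- mice (ko), each from the cortex and hippocampus of a different animal, and none from a mouse without the transgene. Argonaute proteins were captured with a GW182 peptide (Ago-RP-Seq). Each value is thus the share of a guide among the reads captured with Argonaute, and not the amount of miRNA in the tissue.

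The miR-34 genes are textbook targets of the transcription factor p53, which raises miR-34a and the miR-34b and miR-34c pair after DNA damage, and miR-449a is grouped with them by its seed. The 5p arms share that seed and repress genes of the cell cycle and of survival, and the miR-34b, miR-34c and miR-449 hairpins are best known from multiciliated epithelia such as airway, ependyma and choroid plexus. In brain, miR-34a and miR-34c are known from neurons. The study asked whether R-sRNAs with toxic seeds change in brains with neuronal death, by way of DISE (Death Induced by Survival gene Elimination), in which a guide with a toxic 6mer seed silences genes that cells need. The 6mer seed is positions 2 to 7 of a guide. Its viability is the authors' mean over 3 mouse cell lines from an earlier screen, so a low viability marks a toxic seed and was not measured in these mice.

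Mature sequences are shown because the seed divides the members into 5p arms with a toxic seed and 3p arms without one. They are those of RefSeq (GRCm38.p6), 5′ to 3′, with bases 2 to 8 in capitals, and those of the 5p arms come first.
mmu-miR-34a-5p: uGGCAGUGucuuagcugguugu
mmu-miR-34b-5p: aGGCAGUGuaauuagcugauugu
mmu-miR-449a-5p: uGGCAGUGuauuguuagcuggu
mmu-miR-34b-3p: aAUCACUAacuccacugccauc
mmu-miR-34c-3p: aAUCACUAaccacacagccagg
Each of these 5 was identical to the most abundant read of its member. The first 9 bases of mmu-miR-34a-5p and mmu-miR-449a-5p were identical, and mmu-miR-34b-5p shared bases 2 to 9 with the former and 2 to 10 with the latter. The pair of 3p arms shared its first 10 bases and was identical at 17 of 22 positions.

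On GRCm38.p6, the Mir34a hairpin lay at chr4:150068454-150068555 on the plus strand, within an exon of the unconfirmed transcript gene Gm37795 (GENCODE M21). Mir34b (chr9:51103562-51103645) and Mir34c (chr9:51103034-51103110) lay on the minus strand with 451 bases between them, inside an intron of Btg4, which is transcribed from the other strand. Mir449a (chr13:113037534-113037624) lay on the plus strand within an intron of Cdc20b, a host gene of multiciliated cells.

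The 4 5p members had GGCAGU as their main seed, with a viability of 25.1. Of the 3427 seeds in the table, 370 had a lower viability, and of the 463 miRNAs whose mean level reached 10 CPM (reads per 1000000 reads of the library), 48 had a main seed with a lower one. The median main seed of these 463 miRNAs had a viability of 62.8. Both 3p members had AUCACU, with a viability of 69.9, so the arms of mir-34b and of mir-34c carried seeds of low and of higher viability. The other arm of mir-34a, mmu-miR-34a-3p, which is no member, had AUCAGC with a viability of 23.1. By level, GGCAGU was the 12th of 766 seeds with a viability under 40 and the 55th of all seeds. The most abundant of those 766 seeds was led by mmu-miR-16-5p. GGCAGU made up between 0.968% and 2.66% of the reads with a viability under 40 in a library. The 4 5p members held 99.2% of its level, and the only other miRNA name with this seed was mmu-miR-449c-5p, which had 9 reads in ko 2 and 0 reads in the other libraries, where 3 reads would correspond to between 0.382 and 5.79 CPM. For AUCACU, the 3p members held 92.9% of the level, and no other miRNA name carried it.

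Library depth, recovered as whole reads, was between 509839 and 2634450 in het and between 1010177 and 19878054 in ko, with ko 1 and ko 2 above 5000000. Deviations of single miRNAs from their genotype mean followed GC content in some libraries. Spearman's rho across 463 miRNAs was 0.52 in ko 3, 0.42 in het 4 and -0.46 in ko 2, and between -0.15 and -0.02 in the others. Such deviations are not independent between libraries of a genotype. The part of GC content in the results below was not tested. Rubicon itself cannot be checked in small RNA libraries.

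mmu-miR-34a-5p was the most abundant member, at rank 81 of 895 miRNA names by mean level. It stood at 2365, 936, 764 and 1643 CPM in het 1 to 4 and at 1673, 1259, 1051 and 1899 CPM in ko 1 to 4. The ko values lay within the range of the het values, and the means were 1427 ± 732 CPM in het and 1471 ± 385 CPM in ko (SD, n = 4 each). The arm mmu-miR-34a-3p was at between 14.7 and 47.5 CPM.

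mmu-miR-34c-5p, the guide from the miR-34b and miR-34c locus that is best known from hippocampus, ranked 181st. Its levels were 471, 513, 356 and 360 CPM in het and 231, 372, 230 and 244 CPM in ko. All ko libraries other than ko 2 were below every het library, and the means were 425 ± 79.4 and 269 ± 68.9 CPM.

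mmu-miR-34b-5p ranked 199th, at 556, 266, 155 and 459 CPM in het and 138, 151, 121 and 448 CPM in ko. All ko libraries other than ko 4 were below every het library, and ko 4 was above het 2 and het 3 and below het 1 and het 4. The means were 359 ± 182 and 214 ± 156 CPM.

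The 3p arms were lower. mmu-miR-34b-3p was at 46.3, 142, 54.0 and 117 CPM in het and 101, 75.9, 212 and 89.2 CPM in ko. mmu-miR-34c-3p was at 48.3, 108.7, 67.2 and 79.2 CPM in het and 92.9, 76.9, 165 and 60.7 CPM in ko. Both arms were highest in ko 3 and lowest in het 1, and their ratio stayed between 0.803 and 1.47 in all 8 libraries.

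mmu-miR-449a-5p was the least abundant member, at rank 447. It stood at 19.3, 13.8, 15.1 and 10.5 CPM in het and 8.91, 12.6, 18.0 and 5.88 CPM in ko, which rested on 10 reads in het 1 and 6 reads in ko 4 against 251 reads in ko 2. All 10 reads of het 1 were 1 sequence of 24 nt, the mature sequence with a tail of 2 bases that the hairpin does not encode, which was at 0.653 CPM or less in the other libraries. Ordered by mean level, mmu-miR-34c-5p and mmu-miR-34b-5p were neighbours whose ranges overlapped, as were mmu-miR-34b-3p and mmu-miR-34c-3p. mmu-miR-34a-5p was above every other member in every library, and mmu-miR-449a-5p was below them all.

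**Figure D1:**
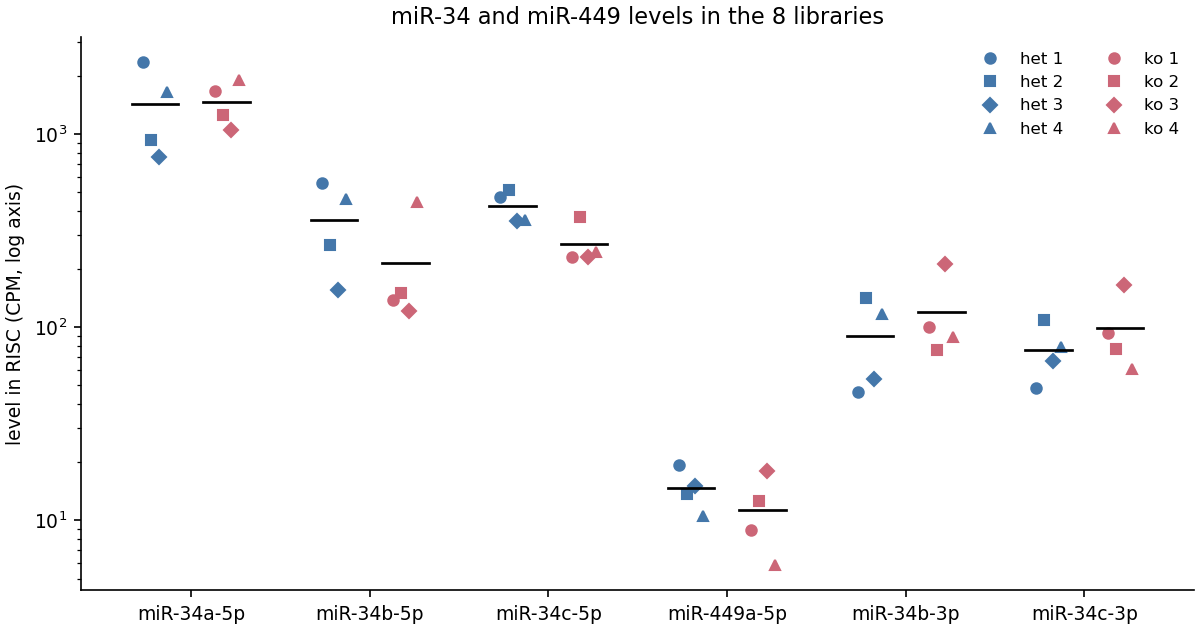
Level of each member in CPM (log axis) in the 4 het (blue) and 4 ko (red) libraries, with the genotype mean as a black bar; the marker shape gives the library number. mmu-miR-34a-5p sits between 764 and 2365 CPM in both genotypes, and the ko libraries of mmu-miR-34c-5p, other than ko 2 at 372 CPM, lie below the het libraries.

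No member passed the test between genotypes at an adjusted p of 0.05 (limma on log2(CPM + 1), Benjamini-Hochberg over 463 miRNAs), where 6 miRNAs or 1.3% were called, all lower in ko. The difference of ko minus het was 0.15 on the log2 scale for mmu-miR-34a-5p (SE 0.36, limma adjusted p = 0.975), with a 95% interval from 0.644-fold to 1.91-fold. It was 0.44 without het 1, -0.01 without het 2 and -0.10 without het 3. That of mmu-miR-34c-5p was the furthest from 0 relative to its error, at -0.67 (SE 0.26, 95% interval -1.23 to -0.10, adjusted p = 0.529). It was 1 of the 34 miRNAs, or 7.34%, with an unadjusted p under 0.05. mmu-miR-34b-5p had a difference of -0.80 with a larger error (SE 0.47, 95% interval -1.81 to 0.21, adjusted p = 0.755), and mmu-miR-449a-5p one of -0.41 (SE 0.48).

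The 3p arms had differences of the other sign. They were 0.45 (SE 0.44) for mmu-miR-34b-3p and 0.34 (SE 0.38) for mmu-miR-34c-3p, and both adjusted p-values were 0.975 (limma). Without ko 3 they were 0.13 and 0.06, and without het 1 they were 0.19 and 0.14. Without het 2 they were 0.72 and 0.53, and without both ko 1 and ko 2 they were 0.77 and 0.46. When any 1 library was left out, mmu-miR-34b-5p ranged from -1.23 (without ko 4) to -0.54 (without het 1), and mmu-miR-449a-5p from -0.66 (without ko 3) to -0.17 (without ko 4). Without ko 1 and ko 2, the deepest libraries, mmu-miR-34b-5p was at -0.46. The groups of all 6 members overlapped, as did those of all but 16 of the 463 miRNAs (3.46%). These intervals still allow changes of up to 2.62-fold higher for mmu-miR-34b-3p and down to 0.284-fold for mmu-miR-34b-5p, and the differences were not detectable with 4 mice a group.

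Summed over all reads that carry it, the toxic seed GGCAGU was at 3301, 1669, 1254 and 2390 CPM in het and 1980, 1727, 1353 and 2517 CPM in ko. Its difference was -0.13 (SE 0.32, 95% interval 0.573-fold to 1.47-fold, limma adjusted p = 0.996 over 990 seeds), and it turned to 0.11 without het 1 and to 0.02 without ko 3. AUCACU was at 102, 235, 108.3 and 177 CPM in het and 189, 145, 335 and 121 CPM in ko, and differed by 0.32 (SE 0.36, limma adjusted p = 0.982). Without ko 3 it differed by 0.03, and without het 1 by 0.14. Without het 2 it differed by 0.54, and without ko 4 by 0.51. Of all seeds tested, 0.303% were called.

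**Figure D2:**
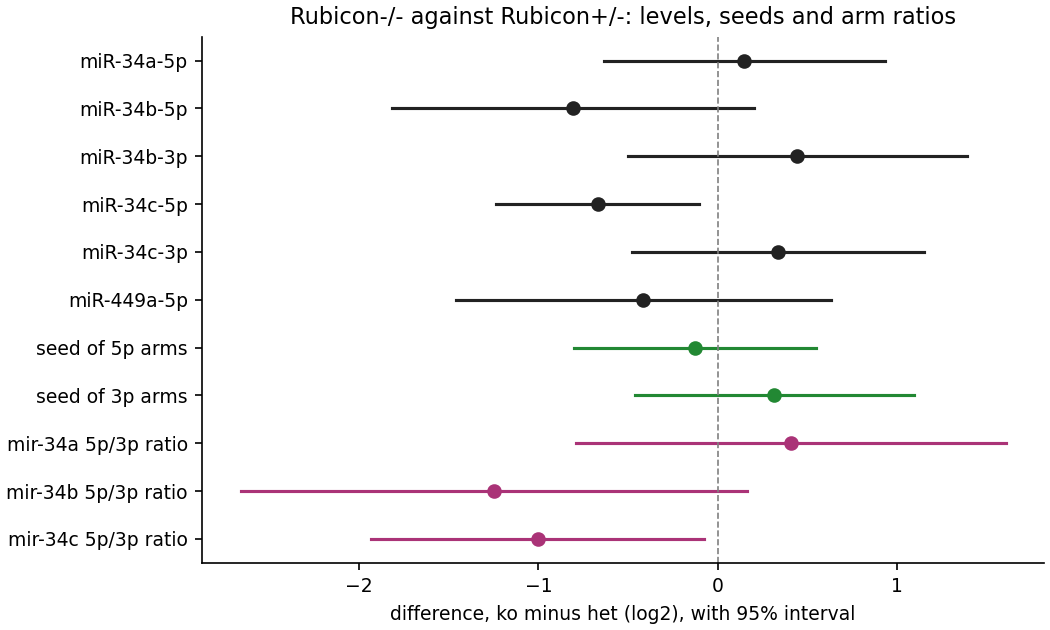
Difference of ko minus het on the log2 scale (points) with its 95% interval (lines) for the 6 members (black), the main seeds of the 5p and 3p arms summed over all reads (green), and the 5p over 3p ratio of 3 hairpins (purple). Every 5p level other than that of mmu-miR-34a-5p lies left of 0 and both 3p levels lie right of it, and the intervals of mmu-miR-34c-5p (-1.23 to -0.10) and of the mir-34c arm ratio (-1.94 to -0.07) do not reach 0 before adjustment.

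The family held between 0.142% and 0.356% of the reads of a library. The share was 0.242 ± 0.0923% in het and 0.220 ± 0.0428% in ko (SD, n = 4 each), and without het 1 it was 0.02 percentage points higher in ko. Weighted by level, the mean seed viability of its reads was 29.8 ± 1.80 in het and 31.2 ± 3.31 in ko, and the highest value of 36.0 was that of ko 3, where the 3p arms were highest. Without ko 3 the mean viability was 0.21 lower in ko. Over all reads, the mean viability was between 55.5 and 57.8 in the 8 libraries. Among the 5p members, mmu-miR-34a-5p made up 69.3%, 54.1%, 59.2% and 66.5% in het and 81.6%, 70.2%, 74.0% and 73.1% in ko. All ko libraries were above all het libraries in this share, by less than 1 percentage point between het 1 and ko 2. The share was looked at after the levels were seen and has no test. How often such shares separate in other families was not worked out. For the levels of single miRNAs, a different measure, the groups did not overlap in 3.46% of 463. Its mean was 12.4 percentage points higher in ko, and between 9.73 and 14.8 points higher when any 1 library was left out.

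A hairpin gives a 5p and a 3p strand, of which RISC usually keeps one. The ratio of 5p to 3p CPM was between 19.7 and 129 for mir-34a. For mir-34b it was 12.0, 1.88, 2.88 and 3.93 in het and 1.37, 1.99, 0.570 and 5.02 in ko, so that ko 3 held more of the 3p than of the 5p arm. For mir-34c it was 9.76, 4.72, 5.30 and 4.54 in het and 2.49, 4.84, 1.39 and 4.02 in ko. Only ko 2 was as high as a het library of mir-34c, since it exceeded het 2 and het 4. The highest ratios rested on few 3p reads. These were 11 in het 1 and 15 in ko 4 for mir-34a, and 24 and 25 in het 1 for mir-34b and mir-34c.

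On the scale of log2((5p CPM + 1)/(3p CPM + 1)), ko minus het was -1.25 for mir-34b (SE 0.66, 95% interval -2.66 to 0.16, limma adjusted p = 0.736) and -1.0 for mir-34c (SE 0.43, 95% interval -1.94 to -0.07, adjusted p = 0.676). It was 0.41 for mir-34a (SE 0.56, limma adjusted p = 0.875). None of the 138 hairpins with both arms tested passed the threshold (0.0%), while 8 of them (5.8%), mir-34c among them, had an unadjusted p under 0.05, and in 5 (3.62%) the groups did not overlap. Without het 1 the difference of mir-34b was -0.73, and without ko 3 it was -0.74. That of mir-34c was -0.66 without ko 3, and that of mir-34a was between 0.03 (without het 2) and 0.85 (without het 1).

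mir-34b was one of the hairpins with the most variable arms. The SD of its log2 arm ratio within genotypes was 1.22, the 6th highest of 138, against a median of 0.646. That of mir-34a was 0.949 (20th) and that of mir-34c 0.668 (66th). The part of counting error in these spreads was not tested.

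**Figure D3:**
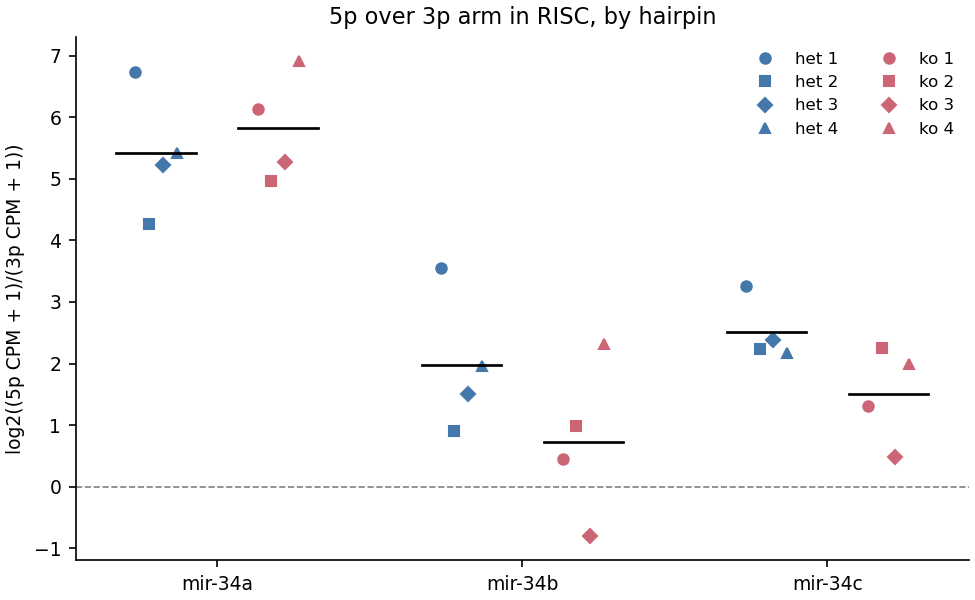
Ratio of the 5p to the 3p arm in RISC, as log2((5p CPM + 1)/(3p CPM + 1)), for the mir-34a, mir-34b and mir-34c hairpins in the 4 het (blue) and 4 ko (red) libraries, with the genotype mean as a black bar; the dashed line marks equal arms. mir-34b spans from -0.81 in ko 3 to 3.56 in het 1, the widest range of the 3 hairpins.

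Levels also differed between mice of the same genotype. Taken as deviations of log2(CPM + 1) from the genotype mean over 8 libraries, the 3p arms of mir-34b and mir-34c had a Pearson's r of 0.90 (Spearman's rho 0.83), and the 5p arms mmu-miR-34a-5p and mmu-miR-34b-5p, from different chromosomes, one of 0.84 (rho 0.81). Without the 2 libraries furthest from the median on the first of the pair, r was 0.69 and 0.74 over 6 libraries. Arms of the same hairpin had r of -0.20 (rho -0.17) for mir-34b and -0.16 (rho -0.29) for mir-34c, and mmu-miR-34b-5p and mmu-miR-34c-5p, which are made from neighbouring hairpins, had r = 0.06 (rho 0.43). With the 2 furthest libraries left out in the same way, these 3 values were 0.38, -0.60 and 0.11. All these values share the same libraries with their depth and base composition, and are descriptions. The level of mmu-miR-34b-5p had r = -0.69 (rho -0.55) with the log10 of library depth, and those of the other members had r between -0.28 and 0.30.

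**Figure D4:**
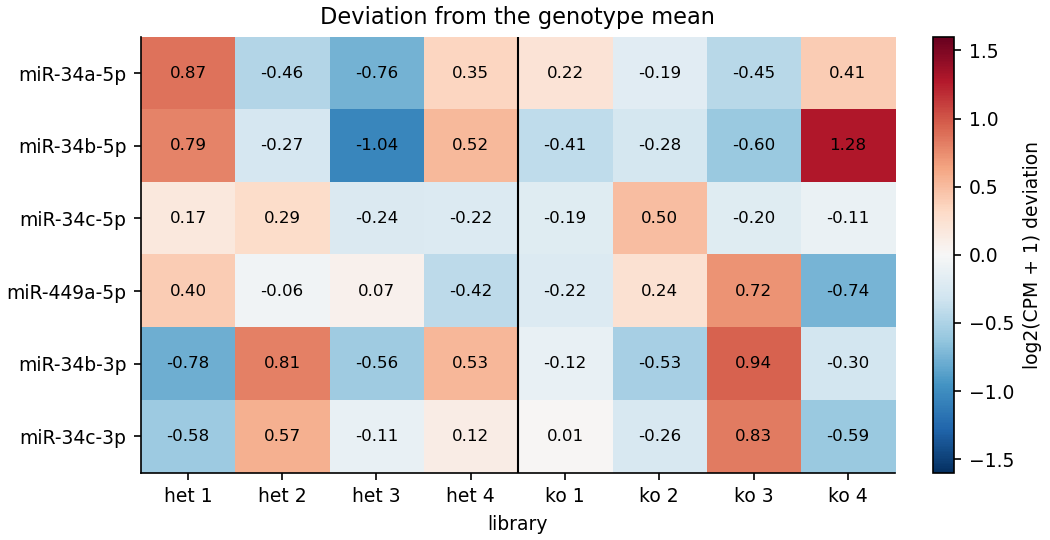
Deviation of each member from its genotype mean on the log2(CPM + 1) scale (colour and number in each cell) in the 4 het and 4 ko libraries, which the vertical line separates. mmu-miR-34a-5p and mmu-miR-34b-5p are both high in het 1 (0.87 and 0.79) and ko 4 (0.41 and 1.28), whereas the 3p arms are low there and high in ko 3 (0.94 and 0.83).

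Of 456 other miRNAs, those most like mmu-miR-34a-5p by the r of these deviations were mmu-miR-29b-2-5p (0.95), mmu-miR-544-5p (0.93) and mmu-miR-505-3p (0.88). Those most like mmu-miR-34c-5p were mmu-miR-544-3p (0.94), mmu-miR-138-5p (0.94) and mmu-miR-376a-5p (0.93). mmu-miR-138-5p, a synaptic miRNA, had a mean level of 8995 ± 1206 CPM in het against 5946 ± 1437 CPM in ko. Its difference of -0.61 (SE 0.24, limma adjusted p = 0.529) was close to that of mmu-miR-34c-5p.

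The start of a read sets its seed, and most reads of the family started where the mature sequence does. Reads without the main seed made up a mean over libraries of 2.94% for mmu-miR-34a-5p, near the median of 3.34% over the 463 miRNAs. The mean was 1.18% for mmu-miR-34c-5p, below the lower quartile of 1.64%. It was 15.7% for mmu-miR-34b-5p, 17.4% for mmu-miR-34b-3p and 10.8% for mmu-miR-34c-3p. The upper quartile over the 463 miRNAs was 12.5%. For mmu-miR-449a-5p the share was 12.8% in het 3, 11.9% in ko 3, 2.39% in ko 2 and 0 in the other 5 libraries. For mmu-miR-34b-5p, 13.6% of the level was in 8 sequences that start 1 base earlier, such as the read below, which is shown in DNA letters with its 6mer seed in capitals.
mmu-miR-34b-5p, 1 base earlier: tAGGCAGtgtaattagctgatt
Their seed AGGCAG has a viability of 44.4, against 25.1 for GGCAGU. This read, the second most abundant of the member, was at 13.5, 17.9, 13.2 and 12.8 CPM in het and 7.51, 14.9, 4.30 and 17.6 CPM in ko. For mmu-miR-34b-3p and mmu-miR-34c-3p, 14.9% and 8.1% of the level started 1 base later, with the seed UCACUA and a viability of 79.9. The share without the main seed was between 8.53% and 25% for mmu-miR-34b-5p, and no member was called (0.0% of the 456 miRNAs above 0 in every library, limma, 28 with an unadjusted p under 0.05 and none of them a member, adjusted p of at least 0.820 for the members).

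The 3′ ends varied more than the starts, and in a way that differed between members. In mmu-miR-34a-5p, 49.4% of the level ended at the mature end and 31.8% was longer by bases that the hairpin encodes, and the first of these shares was lowest in ko 3 (35.2%) and highest in ko 4 (59.6%). In mmu-miR-34b-5p, 80.5% ended at the mature end and 15.5% was shorter. For mmu-miR-34c-5p, whose end was taken from its most abundant read, 60.6% ended there and 22.3% was shorter, and 8.4% had a tail of U and 6.2% one of A that the hairpin does not encode. The 3p arms ended at the mature end in 70.5% (mmu-miR-34b-3p) and 67.2% (mmu-miR-34c-3p), and 12.2% of mmu-miR-34c-3p had an A tail. The leading reads of mmu-miR-34a-5p show the growth of its 3′ end, here in DNA letters with the 6mer seed in capitals.
22 nt: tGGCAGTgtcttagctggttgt
23 nt: tGGCAGTgtcttagctggttgtt
24 nt: tGGCAGTgtcttagctggttgttt
The 22 nt read was at 1278, 459, 326 and 805 CPM in het and 771, 477, 361 and 1107 CPM in ko. The 23 nt read, whose last base is in the hairpin, was at 647, 263, 269 and 467 CPM in het and 541, 439, 415 and 515 CPM in ko. In ko 3 alone the longer of both was the more abundant. The 24 nt read ends in a U that the hairpin does not encode and had a mean of 83.3 CPM.

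**Figure D5:**
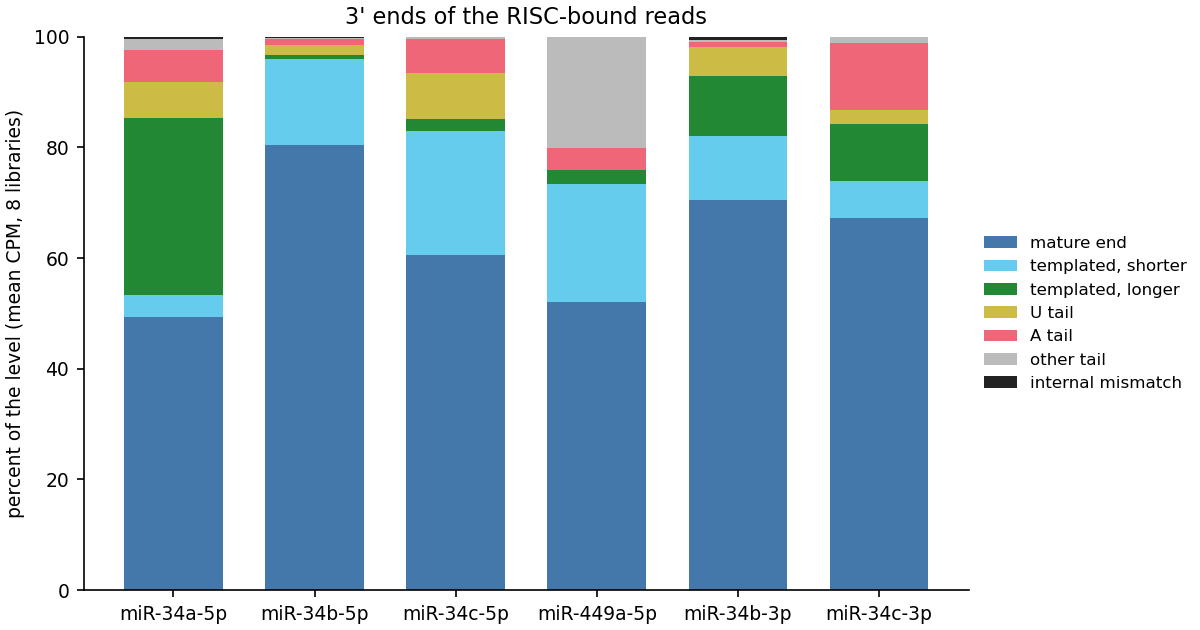
Percent of each member's level (mean CPM over 8 libraries) by the 3′ end of its reads, from the mature end through shorter and longer ends that the hairpin encodes to tails that it does not. mmu-miR-34a-5p has the largest share of longer encoded ends (31.8%) and mmu-miR-34b-5p the largest share at the mature end (80.5%); the 20.1% of other tails in mmu-miR-449a-5p is mostly the 10 reads of het 1.

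Mean read length was 22.5 nt for mmu-miR-34a-5p, 22.9 nt for mmu-miR-34b-5p and 22.7 nt for mmu-miR-34c-5p, longer than the median of 21.8 nt over 463 miRNAs, and 21.9 nt for mmu-miR-34b-3p. No member was called for a difference in read length (0.0% of 456 miRNAs, limma, 20 with an unadjusted p under 0.05 and none of them a member, adjusted p of at least 0.892 for the members). Of the 181 sequences, 23 reached a mean of 10 CPM, and none of these was called, where 0.485% of 3299 reads were. The reads of mmu-miR-34b-5p and mmu-miR-34c-5p that were tested, 5 each, had all a lower mean in ko, by between 0.14 and 1.57 on the log2 scale. So did 2 of the 10 tested reads of mmu-miR-34a-5p and 0 of the 3 tested reads of the 3p arms, which makes 12 of the 23, beside 1702 of all 3299 reads. Of the 23, 3 had an unadjusted p under 0.05 against 5.3% of all reads. The leading read of mmu-miR-34c-5p was at 268, 337, 235 and 181 CPM in het and 144, 238, 145 and 128 CPM in ko, and differed by -0.65 (SE 0.32, limma adjusted p = 0.966). Its second read, 1 base shorter, was at 56.0, 58.5, 68.7 and 55.6 CPM in het and 28.5, 46.0, 43.4 and 21.6 CPM in ko, where every ko library was below every het library (the groups did not overlap for 3.0% of the 3299 reads), with a difference of -0.82 (SE 0.35, limma adjusted p = 0.914). The leading read of mmu-miR-34b-5p, the mature sequence, was at 448, 187, 89.3 and 340 CPM in het and 103, 94.6, 90.7 and 393 CPM in ko, and so carried the high value of ko 4. The leading reads of mmu-miR-34b-3p and mmu-miR-34c-3p were at between 24.1 and 114 CPM and between 27.0 and 107 CPM, and their second reads at between 0 and 19.3 CPM and between 1.502 and 15.4 CPM. The leading read of mmu-miR-449a-5p was at 11.6 CPM or less and at 0 in het 1.

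Other miRNAs that are linked to p53 in textbooks, among them mmu-miR-143-3p and mmu-miR-145a-5p, whose processing p53 aids, and mmu-miR-192-5p and mmu-miR-194-5p, whose genes it activates, were 17 names, of which 16 were tested. None was called, 2 of 16 had an unadjusted p under 0.05, as did 7.34% of the 463 miRNAs, and 14 had a lower mean in ko, as did 275 of all 463 miRNAs. Their median difference was -0.42 against -0.09 over all, and -0.23 in edgeR, -0.21 in DESeq2 and -0.20 with each library centred on its median. It was -0.68 without ko 2 and -0.55 without ko 1 and ko 2. Without ko 3, 2 were called as lower in ko, mmu-miR-141-3p and mmu-miR-200c-3p, which are also on the list of epithelial miRNAs. mmu-miR-141-3p had the smallest p of those with a lower mean in ko (506, 307, 188 and 600 CPM in het against 3.69, 6.12, 418 and 21.6 CPM in ko, limma adjusted p = 0.495), and mmu-miR-504-5p the smallest of those with a higher one (0.46, SE 0.39).

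miRNAs of multiciliated, choroid plexus and other epithelial cells were 15 names, and 12 were tested. Of these, 6 fell in ko and none rose. They were all of the 6 miRNAs called among the 463 tested (1.3%). The median difference was -2.98 against -0.09 over all 463 miRNAs. The list was chosen with earlier results of these data known, so the overlap and the median are descriptions and no test of such cells. Without ko 1 and ko 2, the deepest libraries, 4 fell and the median was -1.71. The 6 were mmu-miR-200a-3p, mmu-miR-200b-3p and mmu-miR-429-3p, which keep epithelial identity, and mmu-miR-183-5p, mmu-miR-96-5p and mmu-miR-182-5p, which are known from sensory epithelia. mmu-miR-429-3p, for example, was at between 452 and 1338 CPM in het and between 28.8 and 86.2 CPM in ko, a difference of -3.98 (SE 0.41, limma adjusted p = 0.0001). The names differed within the list. The choroid plexus miRNA mmu-miR-204-5p was at between 2382 and 4665 CPM in het and between 2109 and 4435 CPM in ko. mmu-miR-211-5p, which is of the same family and was the only tested name of the list with a higher mean in ko, was at 0, 0, 9.71 and 12.4 CPM in het and 43.6, 18.9, 47.7 and 8.82 CPM in ko. mmu-miR-449c-5p, the other miR-449 name with reads, was at 0 in 7 of 8 libraries. The summed level of the 14 names with reads was between 6193 and 13153 CPM in het and between 3154 and 6617 CPM in ko. The part of such cells in the levels of mmu-miR-34b-5p, mmu-miR-34c-5p and mmu-miR-449a-5p was not tested. Fewer cells of a type and less guide RNA per cell cannot be told apart in these samples. Of 6 neuronal miRNAs, including mmu-miR-124-3p and mmu-miR-9-5p, none was called and 1 had an unadjusted p under 0.05, which was mmu-miR-138-5p. The smallest p of those with a higher mean in ko was that of mmu-miR-9-5p, a guide of neural progenitors and neurons (0.41, SE 0.25). Their summed level was between 192380 and 240424 CPM in het and between 200058 and 298341 CPM in ko.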

How the data were processed

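Sample titles gave the genotype and the replicate number of each library. The deposited values are CPM, which the authors made with the SPOROS pipeline (demultiplexing, trimming with Trim Galore per the labels, removal of rare and artificial reads, BLAST to lists of mouse small RNAs, scaling to 1000000 reads). The build and the tool versions were not given in the sources used here. The seed viability score is deposited with each read. All values came out as whole reads within 0.1 reads, and no sequence had under 8 reads in total, a filter that removes sequences of shallow libraries more easily. As values are relative to the library, they also move with its abundant miRNAs. No molecular identifiers were described in the sources used here, so floors of 3 reads are taken to cover counting error only.

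Reads were summed by miRNA name or by seed. Features that reached a mean of 10 CPM were tested on log2(CPM + 1), so that fold changes of low features are understated, with limma 3.58.1 (R 4.3.3, trend and robust, two-sided) in 1 fit of 8 libraries with no covariate, and p-values were Benjamini-Hochberg adjusted over all features. The arm ratio, the share without the main seed and the mean read length were tested likewise. edgeR 4.0.16 and DESeq2 1.42.0 on the whole reads, other pseudocounts and filters, centring, a replicate block and leaving out libraries were alternatives. Only limma and edgeR at the read level were also run on simulated counts with a common dispersion, and no result here rests on that. Reads were placed on RefSeq hairpins (5 of 6 members matched a RefSeq mature entry). The members and lists were chosen with earlier results of these data known. Named were all members, their 2 leading reads and main seeds, other names with the same seed, from each list the miRNAs past the threshold or else the smallest p in each direction, and the 3 miRNAs most like mmu-miR-34a-5p and mmu-miR-34c-5p. The third read of mmu-miR-34a-5p, mmu-miR-34a-3p, mmu-miR-16-5p, mmu-miR-200c-3p, mmu-miR-204-5p, mmu-miR-211-5p and the introductory examples of each list fall outside this rule. Python 3.11.15 and matplotlib 3.10.9 were used for the rest.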

Additional observations from a re-analysis of the deposited data

Results flagged for a closer look

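Within groups of 4 libraries, 7 of 50 groups held a library that stood apart from the others by Dixon's 95% critical value. The groups are not independent, and shares bounded by 0 need not be normal, so no rate by chance is set beside this count. In ko, ko 4 was high for mmu-miR-34b-5p (448 CPM, with the others between 121 and 151 CPM), and ko 2 was high for mmu-miR-34c-5p (372 CPM, with the others between 230 and 244 CPM). Mean read length was low for mmu-miR-34b-5p in ko 2 (22.8 nt, with the others at 23.0 nt) and high for mmu-miR-34c-5p in ko 4 (22.8 nt, with the others at 22.7 nt). In het, reads without the main seed were most frequent for mmu-miR-34b-5p in het 3 (25%), were 0.0% for mmu-miR-34c-3p in het 1, which rested on 25 reads, and reached 12.8% for mmu-miR-449a-5p in het 3 on 39 reads, with 0 in the other het libraries. Outside the comparisons, 40 sequences matched the hairpins of the family but carried no miRNA name. They had a mean of 15.95 CPM, or 0.697% of the level of the members. No explanation of these values was tested.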

How the results depend on the processing

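No member was called in any of the 112 values of a member's level under alternatives, and 110 of them kept the direction. The exceptions were mmu-miR-34a-5p, at -0.01 without het 2 and -0.10 without het 3, with a range of -0.10 to 0.44 when 1 library was left out. GGCAGU turned to 0.11 without het 1 and to 0.02 without ko 3, in a range from -0.35 to 0.11. The smallest adjusted p of a member was 0.191 (mmu-miR-34c-5p without ko 2, -0.83), and under its alternatives the difference was between -0.83 and -0.45 and the adjusted p between 0.191 and 0.988 (0.882 in edgeR and 0.844 in DESeq2). The libraries without the deep ko 1 and ko 2 gave 4 called miRNAs.

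The replicate numbers occur in both genotypes, and deviations of same-numbered libraries correlated at 0.04, 0.29, -0.18 and 0.25 over 463 miRNAs, so that the numbers were not taken to pair the mice. With a replicate block, 10 miRNAs in place of 6, 4 seeds in place of 3 and 2 arm ratios in place of 0 were called, none of them of a member. The block also gave 26 called reads in place of 16, for which members are not given here. It called no isomiR share and no read length. Seeds called were 1 with a pseudocount of 0.1 CPM, 1 in edgeR and 5 in DESeq2. Reads called were 35 at a mean of at least 1 CPM, 5 at 100 CPM, 9 without the libraries over 5000000 reads and 27 in DESeq2. Of isomiR shares, 1 was called without these libraries. Leaving out 1 library gave between 4 and 9 miRNAs, between 0 and 6 seeds (0 without het 2 and 6 without ko 3), between 9 and 21 reads and between 0 and 1 arm ratios. The difference of the family's share of reads was between -0.06 and 0.02 percentage points (0.02 without het 1), and that of its mean viability between -0.21 (without ko 3) and 2.25. The causes were not tested. mmu-miR-449a-5p rested on 10 reads in het 1 and 6 in ko 4.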
